A study of Homo sapiens with 30 samples.

Results

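Untreated HCT116 cells were compared with untreated Ramos cells, the lines whose untreated libraries are the baseline of the study. The comparison rested on 3 libraries of each line, 6 of the 30 in the series. Of the 57992 genes in the expression table, 15647 had a mean of at least 0.5 RPKM (a read count divided by the length of the gene and the size of the library) over the 6 libraries, and these were tested. HCT116 is an established colon carcinoma line that the labels describe as having stabilized MYC. Ramos is an established Burkitt lymphoma line that the labels describe as carrying a MYC translocation. Neither group had received Omomyc, the MYC-inhibitory miniprotein given to the other 12 libraries of each line. The methods do not say whether the untreated HCT116 cells received the protein transfection reagent ProteoJuice, and they do not describe the culture of the Ramos cells for sequencing. Each line is a single culture-adapted tumor line, so a difference between them is that of these lines and not of their tissues. The labels number the libraries of a line from 1 to 3 but do not say that they came from separate cultures. The p-values therefore measure the spread between these libraries, which may be technical. Line, culture and library preparation cannot be told apart in this design.

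HCT116 cells descend from the epithelium of the colon, whose cells are held together by cadherin and desmosome junctions, carry keratin filaments and sit on a laminin matrix through integrins. The line is known to carry an activating allele of CTNNB1, so that the WNT pathway receives constant input. Ramos cells descend from a B cell of the germinal center, the site in the lymph node where B cells divide rapidly and edit their antibody genes. Such cells depend on a surface B cell receptor, which is an immunoglobulin bound to the signaling chains CD79A and CD79B, and they present antigen on MHC class II. In Burkitt lymphoma, MYC is joined to an immunoglobulin locus by translocation. MYC binds DNA as a dimer with MAX, and MAX also pairs with the MXD proteins and MNT, which oppose MYC.

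The libraries of a line resembled each other far more than those of the other line. The correlation of log2(RPKM + 0.5) across the tested genes was between 0.990 and 0.995 for pairs within a line and between 0.606 and 0.614 for pairs between lines, and 0 pairs of libraries were identical. Summed over all genes, RPKM came to 593633 to 660769 in the HCT116 libraries and to 879661 to 973736 in the Ramos libraries. Much of this gap lay in 5 short noncoding RNAs, the 7SL RNAs RN7SL1 and RN7SL2, RN7SK, RMRP and RPPH1, which had the highest levels in both lines. They made up 19.5% to 25.9% of the sum in HCT116 cells and 41.0% to 45.8% in Ramos cells. The sum over protein-coding genes was closer, at 440918 to 445392 RPKM and 463818 to 471768 RPKM. The number of reads is unknown. A rough relative depth was the most common ratio between the value in HCT116 replicate 2 and that in the other library. It used genes above 0 and under 0.2 RPKM in both libraries. By this measure the other libraries lay between 0.543 and 0.920 of HCT116 replicate 2, with Ramos replicate 3 the lowest. Between the lines it rests on the low genes found in both.

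The lines differed in most of the genes tested. With limma on log2(RPKM + 0.5), 13242 of the 15647 genes (84.6%) passed a Benjamini-Hochberg adjusted p of 0.05. Of these, 7144 (45.7% of the tested genes) were higher in HCT116 cells and 6098 (39%) were higher in Ramos cells. Because so many genes passed, a passing gene is common, and most descriptions below also use a difference of at least 4-fold. At that size, 2518 genes (16.1%) were higher in HCT116 cells and 1248 (7.98%) were higher in Ramos cells, together 24.1%. The 3 libraries of one line lay wholly above those of the other for 85.6% of the tested genes. An exact permutation test of 3 libraries against 3 cannot give a p below 0.1, so no single gene could pass it. A shared program was also wide. The difference was under 1 on the log2 scale for 8450 genes (54.0%), and 9828 genes had at least 1 RPKM in each of the 6 libraries. In contrast, 1597 genes had at least 1 RPKM in each HCT116 library and under 0.1 RPKM in each Ramos library, and 569 genes showed the reverse.

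**Figure D1:**
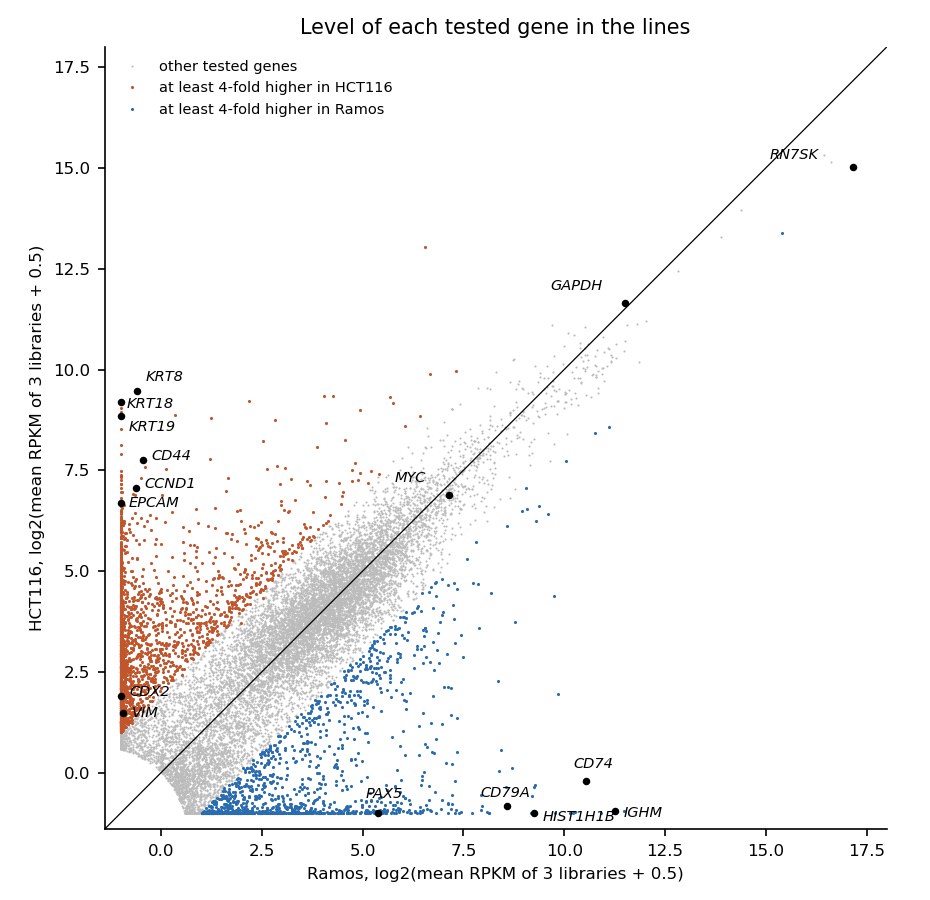
Mean level of each of the 15647 tested genes in Ramos cells (horizontal axis) and HCT116 cells (vertical axis), as log2(mean RPKM of 3 libraries + 0.5), with 1 point per gene, the line of equal level and 16 named genes in black. Orange and blue points passed the adjusted p of 0.05 with a difference of at least 4-fold, 2518 of them higher in HCT116 cells and 1248 higher in Ramos cells. Many lie along the axes, where a gene was at or near 0 in the other line, while MYC and GAPDH lie near the line of equal level.

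The plot of level in one line against level in the other shows this shape, with a cloud along the diagonal and a band of genes along each axis. The balance between the directions depended on the scale. When each library was rescaled to an equal sum of RPKM, the median difference over the tested genes moved from 0.09 to 0.62 on the log2 scale, and the share of passing genes that were higher in HCT116 cells moved from 53.9% to 72.6%. It was 46.7% after quantile normalization and 56.8% after rescaling to an equal sum over protein-coding genes. Of the passing genes named below, MYC, MAX, ID3, INSR, MCL1, MDM4, LDHA, PGK1, ALDOA, GSTP1, MT-ND5 and RMRP were higher in Ramos cells on the deposited scale and in HCT116 cells after rescaling to an equal sum, and RN7SL1, RMRP and NFKBIZ changed direction with quantile normalization. Differences below are on the log2(RPKM + 0.5) scale of the deposited values, as HCT116 minus Ramos with the standard error (SE) of the fit, so that a negative value means higher in Ramos cells. For genes near 0 in one line, the added 0.5 (the pseudocount) sets much of the size, which the SE leaves out. BCL2A1 differed by -6.47, but by -8.63 with a pseudocount of 0.1 and -5.51 with 1. AREG differed by 8.01, 9.17 and 7.27 in that order. The calls of APC, GAPDH, NFKBIZ and MT-ND5 were lost when some single libraries were left out. A gene listed at 0 in every library of a line is given without a difference, because the pseudocount alone would set its size. Where an adjusted p is printed for such a gene, it rests on the same pseudocount. The gene also passed the filter only through the other line, so this p is no separate support for a difference. Genes near 0 in one line, such as PAX5, CIITA or MET, likewise passed the filter only through the other line. Their adjusted p is no separate support for a difference either. By type of gene, 18.1% of the 12636 tested protein-coding genes were at least 4-fold higher in HCT116 cells and 6.61% in Ramos cells. The order was the opposite among the 227 sense-intronic RNAs, with 0.441% and 17.2%, and the 428 processed pseudogenes, with 3.97% and 13.3%. The strand used in counting is not stated, and transcripts that overlap another gene cannot be told from it.

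Markers of B cells and of colon epithelium separated the lines as their labels state. The 10 B cell markers summed to between 1939 and 1996 RPKM in the Ramos libraries and to between 1.59 and 1.96 RPKM in the HCT116 libraries. All 10 were tested and were higher in Ramos cells. The 10 colon epithelium markers summed to between 1918 and 1976 RPKM in HCT116 cells and to between 0.689 and 0.798 RPKM in Ramos cells. The keratins KRT8, KRT18 and KRT19 made up most of the HCT116 sum. Of the 10 markers, 7 were tested and were higher in HCT116 cells. The differentiation markers VIL1, CDH17 and LGALS4 (villin, liver-intestine cadherin and galectin 4) had means under 0.02 RPKM in HCT116 cells and were not tested. In Ramos cells VIL1 and LGALS4 had higher means, of 0.0449 and 0.132 RPKM, and CDH17 was listed at 0. HCT116 cells thus matched their label by the general epithelial markers and CDX2 rather than by those of the mature enterocyte.

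**Figure D2:**
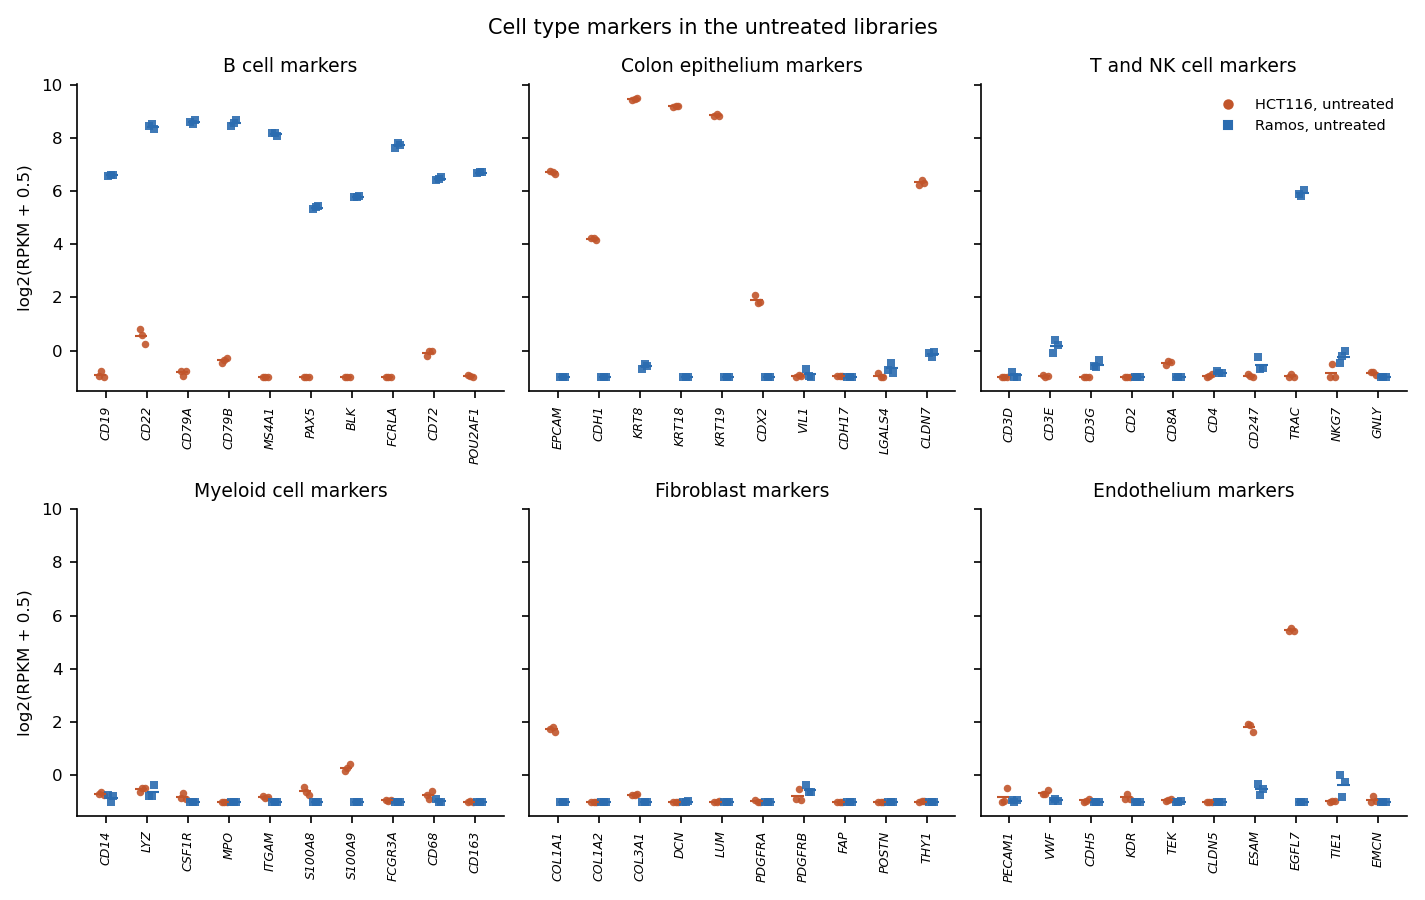
Level of 10 markers each of B cells, colon epithelium, T and NK cells, myeloid cells, fibroblasts and endothelium in the 3 untreated HCT116 (orange circles) and 3 untreated Ramos (blue squares) libraries, as log2(RPKM + 0.5), with lines at the means. B cell markers are high in the Ramos libraries. Most colon epithelium markers are higher in the HCT116 libraries, but VIL1, CDH17 and LGALS4 are near 0 in both lines. The other panels hold only a few markers clearly above 0, among them TRAC in Ramos cells and EGFL7 in HCT116 cells.

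As the panels of markers show, those of other cell types were near 0 with a few exceptions. The 10 myeloid markers summed to at most 1.54 RPKM in any library and were not tested. TRAC, the constant region of the T cell receptor alpha chain, was the 1 T and NK marker tested, at 58.4, 55.4 and 64.7 RPKM in the Ramos libraries and at most 0.0473 RPKM in HCT116 cells, while CD2 was listed at 0 in the 6 libraries and the other 8 had means under 0.7 RPKM. In HCT116 cells the endothelial marker EGFL7, which encodes a secreted protein of the vessel wall and hosts a microRNA, was at 42.7, 45.3 and 42.7 RPKM, the junction gene ESAM was at 3.34, 3.25 and 2.59 RPKM, and the collagen gene COL1A1 was at 2.86, 3.01 and 2.55 RPKM. The defining endothelial genes PECAM1, CDH5 and KDR had means under 0.1 RPKM there, and of the fibroblast markers PDGFRA, LUM and DCN were under 0.01 RPKM.

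**Figure D3:**
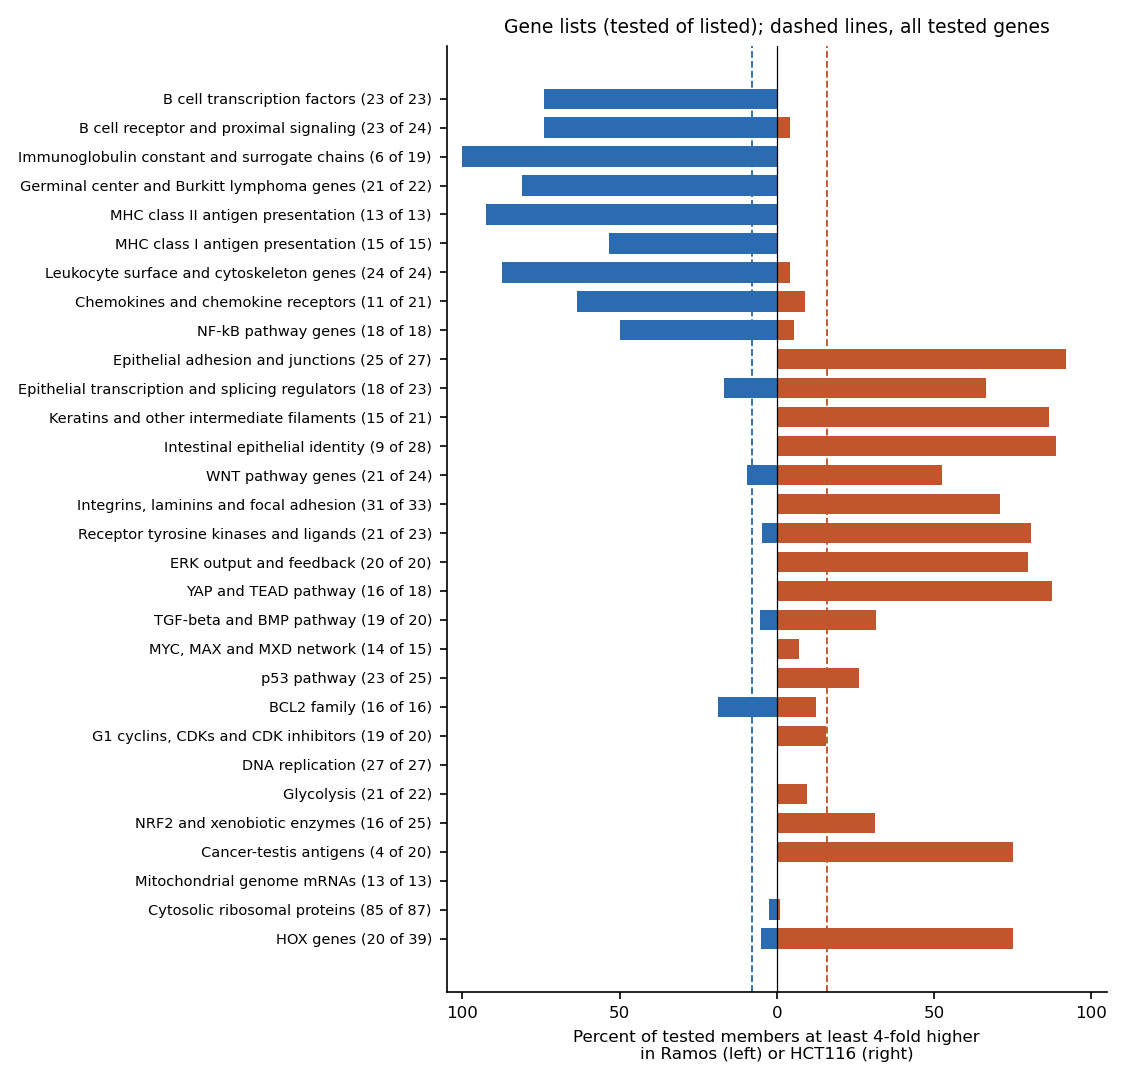
Percent of the tested members of 30 gene lists that passed the adjusted p of 0.05 and were at least 4-fold higher in Ramos cells (blue, to the left) or HCT116 cells (orange, to the right), with the number tested and listed beside each name. Dashed lines mark the same shares over all tested genes, 7.98% and 16.1%. B cell, MHC and leukocyte lists extend to the left, epithelial, adhesion and receptor lists to the right, and DNA replication and mitochondrial mRNAs show neither.

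Gene lists are described by counts and by the median difference over their tested members, as in the plot of lists, beside the shares over all tested genes given above and the median of 0.09. Many list members passed the filter on low values only through the line in which they were high and so had to differ. The counts describe the lists and are no test of them. Among the 9 lists of B cell, antigen presentation and leukocyte genes, between 50% and 100% of the tested members were at least 4-fold higher in Ramos cells, and at most 9.09% of a list was so in HCT116 cells.

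The 23 genes for B cell transcription factors were tested, and each was higher in Ramos cells, 17 of them at least 4-fold (median -4.61). IRF8, a factor of germinal center B cells, was listed at 0 in the HCT116 libraries and was at 118, 105 and 114 RPKM in the Ramos libraries (adjusted p = 4.0e-10). IKZF1, which encodes the lymphoid factor Ikaros, was likewise listed at 0 and at 73.0, 76.4 and 71.2 RPKM (adjusted p = 4.0e-10). POU2AF1, a coactivator of the octamer-binding factors in B cells, was at 0.0311, 0.0160 and 0 RPKM in HCT116 cells and at 102, 103 and 103 RPKM in Ramos cells (-7.65 ± 0.06, adjusted p = 3.1e-10). For these the groups did not overlap, as for 85.6% of all tested genes, and the HCT116 values were at or near 0. MEF2B, a factor of the germinal center, was at 0.336, 0.365 and 0.245 RPKM in HCT116 cells and 87.1, 81.2 and 93.1 RPKM in Ramos cells (-6.75 ± 0.08, adjusted p = 1.2e-09). PAX5, which fixes B cell identity, was at 0.0059, 0.0027 and 0.0029 RPKM in HCT116 cells and 39.0, 41.3 and 43.0 RPKM in Ramos cells (-6.37 ± 0.07, adjusted p = 7.3e-10). BCL6, the repressor that keeps cells in the germinal center, was at 3.11, 4.07 and 3.82 RPKM in HCT116 cells and 54.5, 55.1 and 59.9 RPKM in Ramos cells (-3.78 ± 0.10, adjusted p = 3.0e-08). It was thus measured in each HCT116 library as well. The smallest differences in this list were those of RUNX3 (-0.79 ± 0.06) and of PRDM1, the plasma cell factor, which was low in both lines at 0.533, 0.226 and 0.443 RPKM in HCT116 cells and 1.16, 0.910 and 1.09 RPKM in Ramos cells.

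Promoters of a few of these genes hold the octamer motif ATGCAAAT, the site read by POU2F2 (which itself was at 0.117, 0.380 and 0.0871 RPKM in HCT116 cells and 9.85, 8.77 and 10.2 RPKM in Ramos cells) with POU2AF1, and they are shown because the factors and their coactivator differed between the lines. The sequences are the 250 bases before the start of the gene in RefSeq on GRCh38.p14, 5′ to 3′ on the strand of the gene, with the octamer on either strand in capitals. In the MEF2B promoter the capitals also mark a match on either strand to the EBF1 motif CCCNNGGGA, which began 52 bases before the start. The octamer began 82 bases before the start in MEF2B (chr19:19170264-19170513, minus strand), 47 before it in VPREB3 (chr22:23754426-23754675, minus strand) and 46 before it in CD53 (chr1:110870960-110871209, plus strand). The letters of the octamer were not in the window of the other RefSeq promoter of CD53 or in that of CD79A. It was also present in the promoters of 2 epithelial genes that were high in HCT116 cells, 128 bases before the start of ELF3 (chr1:202010337-202010586, plus strand) and 107 before that of CDX2 (chr13:27969316-27969565, minus strand).
MEF2B: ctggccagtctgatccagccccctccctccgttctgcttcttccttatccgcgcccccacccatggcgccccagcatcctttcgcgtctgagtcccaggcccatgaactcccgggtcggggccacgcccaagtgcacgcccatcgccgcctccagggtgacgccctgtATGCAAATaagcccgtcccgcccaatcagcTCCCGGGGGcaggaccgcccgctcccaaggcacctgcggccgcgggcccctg
VPREB3: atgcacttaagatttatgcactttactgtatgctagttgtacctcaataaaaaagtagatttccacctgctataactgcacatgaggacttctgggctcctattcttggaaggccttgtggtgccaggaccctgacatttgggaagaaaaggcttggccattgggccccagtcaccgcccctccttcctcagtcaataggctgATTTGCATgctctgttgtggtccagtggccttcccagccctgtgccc
CD53: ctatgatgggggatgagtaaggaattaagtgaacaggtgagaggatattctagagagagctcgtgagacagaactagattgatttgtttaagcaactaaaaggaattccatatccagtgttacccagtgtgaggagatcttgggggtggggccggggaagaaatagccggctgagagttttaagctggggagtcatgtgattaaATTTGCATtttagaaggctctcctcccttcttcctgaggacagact
ELF3: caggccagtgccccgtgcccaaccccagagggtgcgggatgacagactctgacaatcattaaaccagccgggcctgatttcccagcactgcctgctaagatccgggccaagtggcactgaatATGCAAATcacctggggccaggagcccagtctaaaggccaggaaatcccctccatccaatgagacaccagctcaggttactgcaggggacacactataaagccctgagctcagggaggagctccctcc
CDX2: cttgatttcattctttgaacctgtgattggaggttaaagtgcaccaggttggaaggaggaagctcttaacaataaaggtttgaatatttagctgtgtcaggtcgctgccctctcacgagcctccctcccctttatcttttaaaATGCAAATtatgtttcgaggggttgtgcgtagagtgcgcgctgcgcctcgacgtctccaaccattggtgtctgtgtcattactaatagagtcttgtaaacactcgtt
In windows of 300 bases that also take in the 50 bases after the start, 1.51% of the 15842 RefSeq promoters of tested genes held the octamer, and 10.2% held the EBF1 motif. Only 69.7% of the passing genes of the B cell and leukocyte lists and 55.2% of those of the epithelial lists had a promoter entry, which is under the 80% set for such a check, so a comparison of the lists by motif is void. A match is a run of letters and not a measured site.

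B cell receptor genes were among the largest differences of the comparison. Of 24 listed genes 23 were tested, and 20 were higher in Ramos cells, 17 at least 4-fold (median -4.45). CD79A was at 0.0903, 0.0183 and 0.0942 RPKM in HCT116 cells and 386, 363 and 405 RPKM in Ramos cells (-9.41 ± 0.07, adjusted p = 3.5e-10). Its partner CD79B was at 0.225, 0.282 and 0.321 RPKM in HCT116 cells and 348, 374 and 405 RPKM in Ramos cells (-8.92 ± 0.08). The surface antigen CD20, encoded by MS4A1, was listed at 0 in HCT116 cells and was at 291, 292 and 265 RPKM in Ramos cells (adjusted p = 1.4e-10). CD22, a coreceptor that damps the signal, was at 1.23, 1.01 and 0.690 RPKM in HCT116 cells and 345, 362 and 319 RPKM in Ramos cells (-7.87 ± 0.13). Of the kinases downstream of the receptor, BTK was at 0.157, 0.0918 and 0.0545 RPKM in HCT116 cells and 58.2, 56.5 and 58.2 RPKM in Ramos cells (-6.60 ± 0.08, adjusted p = 1.1e-09), and the adaptor BLNK had a difference of -6.36 ± 0.07. Kinases and lipases shared with other cells differed less, as for SYK (-3.41 ± 0.07), LYN (-1.52 ± 0.08) and PLCG2 (-3.12 ± 0.06). Higher in HCT116 cells were the complement receptor CR2, at 3.25, 3.16 and 3.42 RPKM in HCT116 cells and 0.0977, 0.0489 and 0.0788 RPKM in Ramos cells (2.71 ± 0.09, adjusted p = 9.3e-08), and the protease MALT1, at 29.3, 28.6 and 30.2 RPKM in HCT116 cells and 12.2, 10.96 and 10.2 RPKM in Ramos cells (1.36 ± 0.07, adjusted p = 1.4e-06). BCL10, the partner of MALT1, was close to the threshold and did not pass, at 11.5, 10.6 and 12.8 RPKM in HCT116 cells and 10.2, 9.26 and 10.5 RPKM in Ramos cells (0.21 ± 0.08, adjusted p = 0.052). PRKCB had a mean of 0.347 RPKM in Ramos cells and was not tested.

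The immunoglobulin genes had the largest differences of the 15647 tested genes. Transcripts for a heavy chain of the IgM class and for a lambda light chain were abundant in Ramos cells. IGHM, the constant region of IgM, was at 2292, 2378 and 2723 RPKM in the Ramos libraries and at most 0.0311 RPKM in HCT116 cells (-12.22 ± 0.07, adjusted p = 1.2e-10). IGLC2 was at 2705, 2979 and 2970.3 RPKM in Ramos cells and at most 0.05 RPKM in HCT116 cells (-12.45 ± 0.06, adjusted p = 6.7e-11). Its near-identical copy IGLC3 was at 1070.3, 1063 and 1257 RPKM in Ramos cells and listed at 0 in HCT116 cells, and how reads were divided between the copies is not known. JCHAIN, which joins IgM into polymers, was at 1199, 1304 and 1202 RPKM in Ramos cells (-11.25 ± 0.05, adjusted p = 6.7e-11). Of the other heavy chain classes, IGHD was at 18.6, 16.5 and 21.5 RPKM, whereas IGHG1 to IGHG4, IGHA1, IGHA2, IGHE and the kappa chain IGKC had means under 0.1 RPKM in both lines and were not tested. Of the variable genes, IGHV4-34 was at 1194, 1154 and 1210.2 RPKM in the Ramos libraries, and IGLV2-14 and IGLV2-23, whose sequences are alike, were at 1889.7, 2072 and 1812 RPKM and at 861, 917 and 829 RPKM, with 0 listed for these 3 genes in HCT116 cells. Of the surrogate light chain genes, VPREB3 was at 0.252, 0.413 and 0.300 RPKM in HCT116 cells and 13.5, 16.9 and 15.1 RPKM in Ramos cells (-4.25 ± 0.11, adjusted p = 4.1e-08), while VPREB1 and IGLL1, which mark earlier B cells, had means under 0.1 RPKM.

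Genes of the germinal center and of Burkitt lymphoma were higher in Ramos cells in 20 of the 21 cases tested, 17 at least 4-fold (median -3.05), and SERPINA9 was not tested. TCL1A, an activator of AKT that is known from lymphoid tumors, was at 559, 569 and 609.6 RPKM in the Ramos libraries and listed at 0 in HCT116 cells (adjusted p = 6.7e-11). RGS13, which damps chemokine signaling in germinal center cells, was at 178, 158 and 187 RPKM in Ramos cells and at most 0.0172 RPKM in HCT116 cells (-8.43 ± 0.08, adjusted p = 4.7e-10). CD10, encoded by MME, was at 0.0093, 0.0496 and 0 RPKM in HCT116 cells and 87.1, 79.7 and 89.7 RPKM in Ramos cells (-7.37 ± 0.07, adjusted p = 6.4e-10). The ectoenzyme CD38 was at 91.9, 88.7 and 83.9 RPKM in Ramos cells (-7.43 ± 0.06). These 4 had no overlap between the lines, which held for 85.6% of all tested genes and does not set them apart. Less separated were genes of growth control in this list. ID3, an inhibitor of the factors encoded by TCF3 and its relatives, was at 83.4, 86.5 and 91.3 RPKM in HCT116 cells and 115, 112 and 118 RPKM in Ramos cells (-0.40 ± 0.05, adjusted p = 1.2e-04), and TCF3 itself was at 45.9, 47.5 and 46.9 RPKM in HCT116 cells and 110.1, 105 and 121 RPKM in Ramos cells (-1.25 ± 0.06, adjusted p = 8.2e-07). MARCKSL1 was the 1 member higher in HCT116 cells (0.95 ± 0.05).

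The 13 genes for MHC class II presentation were each higher in Ramos cells, 12 at least 4-fold (median -5.92). CD74, the invariant chain, was at 0.362, 0.345 and 0.402 RPKM in HCT116 cells and 1435, 1438 and 1573 RPKM in Ramos cells (-10.73 ± 0.05, adjusted p = 6.7e-11). HLA-DRA was at 2.98, 3.53 and 3.52 RPKM in HCT116 cells and 931, 934 and 894 RPKM in Ramos cells (-7.91 ± 0.07, adjusted p = 4.0e-10), so that a low level was measured in each HCT116 library. HLA-DPA1, the alpha chain of a further class II molecule, had a difference of -8.61 ± 0.16. CIITA, the transactivator of these genes, was at 0.0090, 0 and 0.0474 RPKM in HCT116 cells and 50.2, 44.5 and 49.6 RPKM in Ramos cells (-6.55 ± 0.08, adjusted p = 1.1e-09). The smallest difference was that of HLA-DQB1 (-1.27 ± 0.15), at 0.798, 0.809 and 0.881 RPKM in HCT116 cells and 2.68, 2.13 and 3.46 RPKM in Ramos cells. HLA-DRB1 and HLA-DRB5 are near-identical, and their separate values are uncertain. Class I genes were present in both lines and differed less. Of 15 tested, 14 were higher in Ramos cells, 8 at least 4-fold (median -2.17). B2M, the light chain of class I, was at 339, 349 and 336 RPKM in HCT116 cells and 1828, 1719.7 and 1645 RPKM in Ramos cells (-2.34 ± 0.05, adjusted p = 1.1e-08). PSMB8, a subunit of the immunoproteasome, was close to 0 in HCT116 cells, at 0.133, 0.154 and 0.271 RPKM in HCT116 cells and 144, 148 and 151 RPKM in Ramos cells (-7.76 ± 0.08, adjusted p = 8.2e-10), whereas its partner PSMB9 was at 7.38, 6.31 and 6.79 RPKM in HCT116 cells and 95.5, 89.7 and 101 RPKM in Ramos cells (-3.71 ± 0.07, adjusted p = 7.9e-09). NLRC5, the transactivator of class I, differed by -3.07 ± 0.06, and ERAP2, which trims peptides, by -2.93 ± 0.10. HLA-C had the other direction, at 130.0, 141 and 123.04 RPKM in HCT116 cells and 98.8, 99.6 and 94.4 RPKM in Ramos cells (0.43 ± 0.06, adjusted p = 2.9e-04), while HLA-B was at 68.9, 71.0 and 67.0 RPKM in HCT116 cells and 387, 393 and 366 RPKM in Ramos cells (-2.46 ± 0.04).

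Genes of the leukocyte surface and cytoskeleton were higher in Ramos cells in 23 of 24 cases, 21 at least 4-fold (median -6.55). CD52, a small surface glycoprotein of lymphocytes, was at 0.164, 0.296 and 0.0537 RPKM in HCT116 cells and 556, 635 and 582 RPKM in Ramos cells (-9.80 ± 0.13, adjusted p = 1.7e-09). LCP1, the leukocyte actin bundler, was at 0.352, 0.256 and 0.299 RPKM in HCT116 cells and 639, 615 and 615 RPKM in Ramos cells (-9.60 ± 0.06, adjusted p = 1.2e-10). CD48 was listed at 0 in HCT116 cells and was at 287, 279.9 and 270.4 RPKM in Ramos cells, and the tetraspanin CD53, whose promoter is shown above, was at 0.0681, 0.0503 and 0.0823 RPKM in HCT116 cells and 235, 265 and 242 RPKM in Ramos cells (-8.77 ± 0.06). The common leukocyte antigen PTPRC (CD45) was at 0.0302, 0.0150 and 0.0054 RPKM in HCT116 cells and 66.4, 65.1 and 60.3 RPKM in Ramos cells (-6.96 ± 0.07). Integrin ITGAL (LFA-1 alpha) was at 73.6, 83.4 and 79.2 RPKM in Ramos cells, but its beta chain ITGB2 was only at 6.37, 4.01 and 3.59 RPKM there, with Ramos replicate 1 the highest.

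Of 21 chemokine and chemokine receptor genes, 11 were tested, and 9 were higher in Ramos cells, 7 at least 4-fold (median -3.46). CXCR4, which places B cells in the dark zone of the germinal center, was at 0.685, 0.714 and 0.568 RPKM in HCT116 cells and 142, 151 and 152 RPKM in Ramos cells (-7.01 ± 0.07, adjusted p = 5.6e-10). CXCR5, the receptor for the follicle, was at 13.5, 12.01 and 12.2 RPKM in Ramos cells, and CCL3, a ligand made after B cell receptor signaling, was at 20.9, 20.0 and 18.1 RPKM, both under 0.1 RPKM in each HCT116 library. CCR6, a receptor of memory and mature B cells, differed by -4.56 ± 0.07. CXCL16 was higher in HCT116 cells, at 10.96, 10.4 and 10.2 RPKM in HCT116 cells and 0.359, 0.587 and 0.380 RPKM in Ramos cells (3.56 ± 0.11, adjusted p = 7.8e-08), as was CXCL8 (1.57 ± 0.16). The untested members included CXCL1, CXCL2 and CXCL3, with means of 0.573 to 0.681 RPKM in HCT116 cells and 0 in Ramos cells. NF-kB pathway genes were tested in 18 of 18 cases, with 14 higher in Ramos cells, 9 at least 4-fold (median -1.78). BIRC3, a target and regulator of the pathway, was at 1.74, 1.87 and 1.99 RPKM in HCT116 cells and 109.5, 99.8 and 100.4 RPKM in Ramos cells (-5.46 ± 0.06, adjusted p = 1.0e-09). TRAF1 (-5.05 ± 0.08), the kinase IKBKE (-4.29 ± 0.06) and the adhesion molecule ICAM1 (-3.52 ± 0.08) followed. REL, the subunit typical of B cells, was at 4.31, 4.25 and 4.42 RPKM in HCT116 cells and 41.5, 38.5 and 38.6 RPKM in Ramos cells (-3.05 ± 0.05, adjusted p = 5.0e-09), whereas RELA did not pass, at 17.8, 16.5 and 18.1 RPKM in HCT116 cells and 18.2, 19.1 and 21.7 RPKM in Ramos cells (-0.16 ± 0.08, adjusted p = 0.083). TRAF3, which holds back the noncanonical branch, was higher in HCT116 cells, at 14.03, 14.6 and 15.3 RPKM in HCT116 cells and 1.16, 1.93 and 1.04 RPKM in Ramos cells (3.04 ± 0.17, adjusted p = 2.0e-06). MAP3K14, the kinase of that branch, did not pass (-0.19 ± 0.11, adjusted p = 0.13), and NFKBIZ was slightly higher in HCT116 cells (0.50 ± 0.16).

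Epithelial genes were high in HCT116 cells. Of 27 genes for epithelial adhesion and junctions 25 were tested, and 24 were higher in HCT116 cells, 23 at least 4-fold (median 4.50). For 10 of them the Ramos libraries were listed at 0. EPCAM, the epithelial adhesion molecule, was at 108, 103 and 99.1 RPKM in the HCT116 libraries (adjusted p = 3.5e-10), and CDH1, which encodes E-cadherin, was at 18.5, 18.3 and 17.2 RPKM (adjusted p = 1.8e-09), both listed at 0 in Ramos cells. The desmosome genes DSP, at 72.5, 64.3 and 68.0 RPKM, and DSG2, at 64.8, 59.5 and 57.9 RPKM, were also listed at 0 there. The tight junction claudin CLDN4 was at 58.3, 63.9 and 60.5 RPKM in HCT116 cells and 0.109, 0.0154 and 0 RPKM in Ramos cells (6.83 ± 0.09, adjusted p = 1.9e-09). The catenin CTNNA1 was found in both lines, at 158, 148 and 157 RPKM in HCT116 cells and 7.91, 9.35 and 9.22 RPKM in Ramos cells (4.06 ± 0.07, adjusted p = 5.1e-09). TJP1, a scaffold of the tight junction, was at 33.7, 30.2 and 32.2 RPKM in HCT116 cells and 0.0109, 0 and 0.0146 RPKM in Ramos cells (5.997 ± 0.07, adjusted p = 1.1e-09). CLDN1 and CEACAM1 had means under 0.2 RPKM and were not tested.

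Epithelial regulators were tested in 18 of 23 cases, with 14 higher in HCT116 cells and 4 higher in Ramos cells (median 3.71). ESRP1, which sets the epithelial pattern of splicing, was at 56.9, 52.5 and 56.3 RPKM in HCT116 cells and 0.366, 0.545 and 0.316 RPKM in Ramos cells (5.95 ± 0.10, adjusted p = 4.8e-09). The transcription factor ELF3, whose promoter is shown above, was at 17.7, 19.5 and 19.0 RPKM in HCT116 cells and 0.0410, 0 and 0.0085 RPKM in Ramos cells (5.22 ± 0.08, adjusted p = 2.7e-09), and EHF, of the same ETS family, was at 31.4, 33.0 and 36.0 RPKM in HCT116 cells and listed at 0 in Ramos cells. MAL2, a protein of apical transport, was at 86.9, 84.3 and 94.8 RPKM with 0 listed in Ramos cells, and RAB25, a GTPase of epithelial recycling, differed by 6.50 ± 0.11. ZEB1 and ZEB2, repressors of the epithelial program that are also used by lymphocytes, were higher in Ramos cells, at 2.21, 2.24 and 1.86 RPKM in HCT116 cells and 13.8, 15.9 and 13.8 RPKM in Ramos cells for ZEB1 (-2.53 ± 0.09, adjusted p = 2.0e-07) and at 0.0132, 0.0810 and 0.0436 RPKM in HCT116 cells and 6.47, 6.84 and 5.52 RPKM in Ramos cells for ZEB2 (-3.63 ± 0.11, adjusted p = 6.6e-08). OVOL2, which opposes ZEB1 in epithelia, was also higher in Ramos cells (-2.10 ± 0.12), as was the protease ST14 (-0.89 ± 0.08), while its inhibitor SPINT1 was at 39.6, 41.8 and 36.4 RPKM in HCT116 cells and 0.101, 0.175 and 0.0553 RPKM in Ramos cells (6.03 ± 0.10, adjusted p = 3.5e-09). SNAI2, TWIST1, TP63 and FOXQ1 had means under 0.8 RPKM in both lines and were not tested.

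The keratins of simple epithelia were among the largest differences toward HCT116 cells. KRT8 was at 686, 707 and 712 RPKM in HCT116 cells and 0.121, 0.207 and 0.162 RPKM in Ramos cells (10.05 ± 0.06, adjusted p = 1.2e-10). Its partner KRT18 was at 576, 587 and 590.2 RPKM in HCT116 cells and listed at 0 in Ramos cells, and so was KRT19 at 451, 473 and 456 RPKM. Of the 21 genes for intermediate filaments and their linkers, 15 were tested and 15 were higher in HCT116 cells, 13 at least 4-fold (median 4.39). LMNA, which encodes the nuclear lamins A and C, was at 185, 182 and 189 RPKM in HCT116 cells and 0.842, 0.395 and 0.540 RPKM in Ramos cells (7.43 ± 0.14, adjusted p = 6.9e-09), whereas LMNB1 of the same layer was close, at 106, 97.1 and 102 RPKM in HCT116 cells and 73.5, 67.5 and 67.7 RPKM in Ramos cells (0.54 ± 0.05, adjusted p = 4.7e-05). VIM, the filament of mesenchymal and lymphoid cells, was low in both lines, at 2.38, 2.18 and 2.34 RPKM in HCT116 cells and 0.0169, 0 and 0.0452 RPKM in Ramos cells (2.43 ± 0.09, adjusted p = 2.1e-07). KRT20 and KRT80 had means of 0.458 and 0.396 RPKM in HCT116 cells and were not tested, as were KRT5, KRT14, KRT17 and KRT81 under 0.1 RPKM.

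Genes of intestinal identity were only partly present. Of 28 listed genes 9 were tested, and these 9 were higher in HCT116 cells, 8 at least 4-fold (median 2.74). SOX9, a factor of the crypt base, was at 20.8, 16.8 and 18.8 RPKM in HCT116 cells and listed at 0 in Ramos cells (adjusted p = 5.7e-09). CDX2, the master factor of the intestine, was at 3.79, 2.98 and 3.03 RPKM (adjusted p = 2.3e-07), HNF4A at 1.54, 1.71 and 2.01 RPKM and GATA6 at 3.02, 2.69 and 2.84 RPKM, with 0 listed in Ramos cells. These factors were thus low beside the keratins. LGR5, OLFM4, MUC2, TFF3, FABP1, SLC26A3, CEACAM5 and VIL1 had means under 0.02 RPKM in HCT116 cells, CDX1 and GATA4 were listed at 0, and none of the 19 untested members exceeded a mean of 0.9 RPKM in either line. CA2, a carbonic anhydrase of colonocytes, was at 17.2, 17.1 and 18.3 RPKM, and the receptor EPHB2, a WNT target of the crypt, was at 13.7, 15.3 and 13.9 RPKM.

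Attachment genes were higher in HCT116 cells for nearly every member tested. Of 33 genes for integrins, laminins and focal adhesion 31 were tested, and 30 were higher in HCT116 cells, 22 at least 4-fold (median 4.07). CD44, the hyaluronan receptor, was at 235, 216 and 199 RPKM in HCT116 cells and 0.297, 0.282 and 0.130 RPKM in Ramos cells (8.21 ± 0.11, adjusted p = 1.7e-09). The tropomyosin TPM2 was at 157, 149.6 and 150.01 RPKM in HCT116 cells and listed at 0 in Ramos cells, and the caveolar protein CAV1 was at 83.7, 76.9 and 83.0 RPKM with 0 listed. The tetraspanin CD151, which binds laminin-binding integrins, was at 121, 132 and 120.4 RPKM in HCT116 cells and 0.0353, 0 and 0 RPKM in Ramos cells (7.93 ± 0.07). Integrin ITGB4, which binds laminin in hemidesmosomes, was at 56.6, 55.1 and 51.0 RPKM in HCT116 cells and 0.0929, 0.181 and 0.166 RPKM in Ramos cells (6.41 ± 0.08, adjusted p = 1.3e-09). The common beta chain ITGB1 was abundant in both lines, at 176, 185 and 172 RPKM in HCT116 cells and 37.7, 36.4 and 35.5 RPKM in Ramos cells (2.27 ± 0.04, adjusted p = 8.7e-09). Talin, encoded by TLN1, did not pass, at 44.6, 37.4 and 41.9 RPKM in HCT116 cells and 38.9, 35.8 and 40.8 RPKM in Ramos cells (0.10 ± 0.08, adjusted p = 0.28), and non-muscle myosin MYH9 differed by 0.26 ± 0.05. ITGB6 and COL17A1 were not tested.

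Receptor tyrosine kinases and their ligands were tested in 21 of 23 cases, with 18 higher in HCT116 cells, 17 at least 4-fold (median 4.22). MET, the receptor for hepatocyte growth factor, was at 108, 109.9 and 100.3 RPKM in HCT116 cells and at most 0.0048 RPKM in Ramos cells (7.73 ± 0.06, adjusted p = 3.5e-10). The ephrin receptor EPHA2 was at 37.7, 40.1 and 39.4 RPKM in HCT116 cells and listed at 0 in Ramos cells. EGFR was at 20.6, 19.8 and 18.4 RPKM in HCT116 cells and 0.254, 0.220 and 0.301 RPKM in Ramos cells (4.73 ± 0.08, adjusted p = 4.4e-09). Its ligands EREG and AREG were higher than the receptor in HCT116 cells. EREG was at 178, 178 and 175 RPKM in HCT116 cells and 0.0068, 0 and 0 RPKM in Ramos cells (8.47 ± 0.05, adjusted p = 1.2e-10). AREG was at 179, 196 and 199.7 RPKM in HCT116 cells and 0.127, 0.433 and 0.204 RPKM in Ramos cells (8.01 ± 0.14, adjusted p = 5.7e-09). Another ligand, HBEGF, had the opposite direction, at 3.15, 3.20 and 3.21 RPKM in HCT116 cells and 30.4, 29.5 and 30.8 RPKM in Ramos cells (-3.06 ± 0.05, adjusted p = 3.7e-09). FLT3 (-1.26 ± 0.11) and INSR (-0.40 ± 0.06) were also higher in Ramos cells. Transcripts of ERK output and feedback were tested in 20 of 20 cases, with 19 higher in HCT116 cells, 16 at least 4-fold (median 3.78). The ERK phosphatase DUSP6 was at 152, 159.9 and 160.1 RPKM in HCT116 cells and 0.113, 0.477 and 0.0384 RPKM in Ramos cells (7.85 ± 0.21, adjusted p = 3.7e-08). The factor ETV5 was at 31.6, 31.2 and 33.4 RPKM in HCT116 cells and listed at 0 in Ramos cells. IER3, an early response gene, was at 201, 233 and 226 RPKM in HCT116 cells and 1.96, 1.62 and 1.88 RPKM in Ramos cells (6.57 ± 0.08, adjusted p = 1.2e-09). SPRED2, an inhibitor of the pathway, did not pass, at 16.3, 14.9 and 16.1 RPKM in HCT116 cells and 16.4, 15.6 and 16.6 RPKM in Ramos cells (-0.04 ± 0.06, adjusted p = 0.52), although SPRED1 was at 14.01, 14.3 and 14.2 RPKM in HCT116 cells and 0.305, 0.0731 and 0.160 RPKM in Ramos cells (4.45 ± 0.13, adjusted p = 5.9e-08). JUNB was close in the lines (0.43 ± 0.09).

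The YAP and TEAD pathway, which reads attachment and cell shape, was tested in 16 of 18 genes, and 15 were higher in HCT116 cells, 14 at least 4-fold (median 4.13). YAP1 was at 51.7, 48.5 and 56.1 RPKM in HCT116 cells and 0.955, 1.16 and 0.744 RPKM in Ramos cells (5.19 ± 0.11, adjusted p = 1.5e-08). TEAD1, its DNA-binding partner, was at 60.3, 52.6 and 60.7 RPKM and WWTR1, the YAP1 relative TAZ, at 13.3, 11.9 and 13.7 RPKM in HCT116 cells, with 0 listed for both in Ramos cells. The YAP1-binding angiomotins AMOTL1, at 15.8, 14.8 and 16.5 RPKM, and AMOTL2, at 16.9, 15.3 and 17.3 RPKM, were also at or near 0 in Ramos cells. The kinase LATS1, which restrains YAP1, did not pass, at 6.96, 6.68 and 6.97 RPKM in HCT116 cells and 7.40, 7.93 and 7.56 RPKM in Ramos cells (-0.14 ± 0.06, adjusted p = 0.054), but LATS2 was at 4.10, 3.59 and 4.34 RPKM in HCT116 cells and listed at 0 in Ramos cells. The usual YAP1 targets CYR61, at 4.43, 4.44 and 4.60 RPKM, and CTGF, at 1.39, 0.711 and 1.10 RPKM, were low for this list.

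WNT pathway genes were tested in 21 of 24 cases, with 18 higher in HCT116 cells, 11 at least 4-fold (median 2.53). AXIN2, a negative regulator that the pathway itself turns on, was at 19.8, 20.9 and 18.5 RPKM in HCT116 cells and 0.557, 0.298 and 0.353 RPKM in Ramos cells (4.49 ± 0.12, adjusted p = 3.7e-08). DKK1, a secreted inhibitor, was at 68.8, 61.7 and 60.3 RPKM in HCT116 cells and listed at 0 in Ramos cells (adjusted p = 6.7e-10). LRP6, a coreceptor, was at 19.1, 19.1 and 16.6 RPKM in HCT116 cells with 0 listed in Ramos cells, and the ligand WNT10A was higher in Ramos cells (-2.99 ± 0.11). Members of the TCF family differed in RNA level between the lines. TCF7L2 was at 22.1, 20.4 and 19.5 RPKM in HCT116 cells and listed at 0 in Ramos cells, while LEF1 was at 24.9, 26.9 and 23.6 RPKM in Ramos cells and listed at 0 in HCT116 cells (adjusted p = 1.8e-09). CTNNB1, which encodes beta-catenin, was abundant in both, at 218, 208 and 224 RPKM in HCT116 cells and 84.2, 88.8 and 87.2 RPKM in Ramos cells (1.32 ± 0.04, adjusted p = 1.1e-07). APC (0.14 ± 0.05) was nearly equal, and AXIN1 did not pass (-0.05 ± 0.08, adjusted p = 0.57). Of the TGF-beta and BMP genes 19 of 20 were tested, with 14 higher in HCT116 cells and 5 in Ramos cells (median 0.88). The ligands were split. BMP4 was at 91.0, 88.7 and 82.1 RPKM in HCT116 cells and listed at 0 in Ramos cells, whereas BMP7 was at 4.63, 4.55 and 4.44 RPKM in HCT116 cells and 38.6, 33.0 and 40.6 RPKM in Ramos cells (-2.91 ± 0.08, adjusted p = 5.3e-08). The BMP receptor BMPR1A differed by 5.01 ± 0.14, and the activin receptor ACVR2A was listed at 0 in Ramos cells and at 6.84, 5.96 and 6.10 RPKM in HCT116 cells. TGFB1 (-0.70 ± 0.12) and its receptor TGFBR2 (-1.003 ± 0.06) were higher in Ramos cells. ID1, a target of BMP signaling, was at 264, 274 and 271 RPKM in HCT116 cells and 14.3, 14.5 and 13.7 RPKM in Ramos cells (4.20 ± 0.04, adjusted p = 5.6e-10), while ID2 differed by 0.42 ± 0.04.

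**Figure D4:**
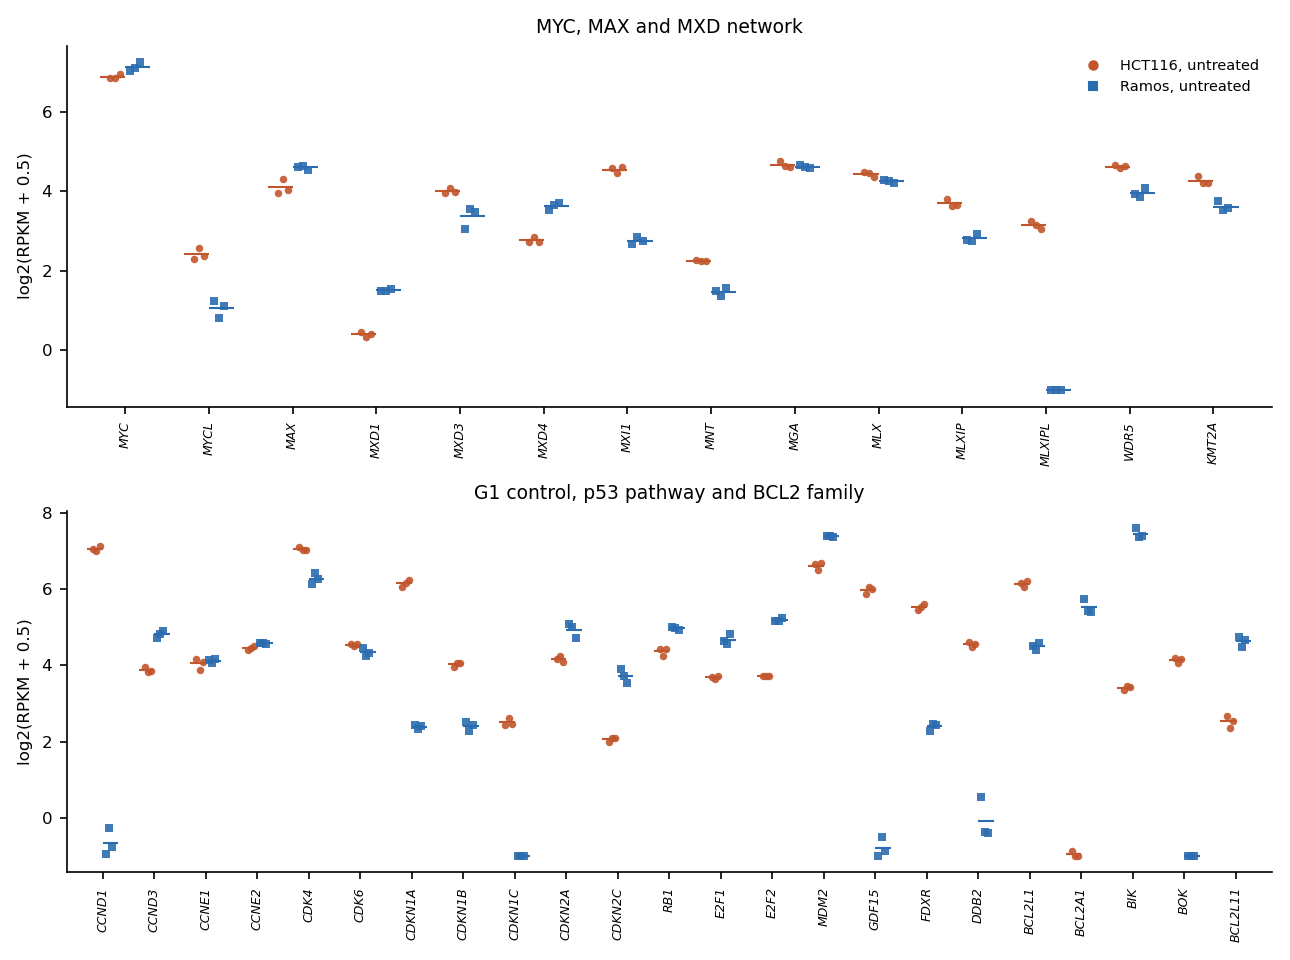
Level of MYC, MAX and related genes (upper panel) and of genes for G1 control, the p53 pathway and the BCL2 family (lower panel) in the 3 untreated HCT116 (orange circles) and 3 untreated Ramos (blue squares) libraries, as log2(RPKM + 0.5), with lines at the means. MYC lies at nearly the same height in the lines, whereas CCND1, CDKN1A, GDF15, DDB2 and BOK are high in HCT116 cells and BCL2A1 and BIK in Ramos cells.

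MYC was close to equal in the lines. It was at 115, 116 and 124 RPKM in HCT116 cells and 131, 137 and 153 RPKM in Ramos cells (-0.24 ± 0.07, adjusted p = 0.01), so that each Ramos library was above each HCT116 library by a margin that passed the test on the deposited scale. Rescaling to an equal sum turned this to 0.33 in favor of HCT116 cells, so no direction is given. MAX was at 15.1, 19.4 and 16.1 RPKM in HCT116 cells and 24.03, 24.6 and 22.9 RPKM in Ramos cells (-0.49 ± 0.09, adjusted p = 0.0019) and also turned with that scaling, to 0.07. MYCN was listed at 0 in the 6 libraries. Within the network 14 of 15 genes were tested, with 9 higher in HCT116 cells, 4 higher in Ramos cells and 1 not passing (median 0.64). The largest difference was that of MLXIPL, a glucose-responsive relative, at 9.14, 8.46 and 7.84 RPKM in HCT116 cells and 0 listed in Ramos cells. The MYC antagonists were divided. MXI1 was at 23.5, 21.5 and 24.03 RPKM in HCT116 cells and 5.88, 6.69 and 6.30 RPKM in Ramos cells (1.79 ± 0.07, adjusted p = 3.0e-07), MXD4 at 6.09, 6.78 and 6.14 RPKM in HCT116 cells and 10.99, 12.2 and 12.7 RPKM in Ramos cells (-0.86 ± 0.08, adjusted p = 2.6e-05) and MXD1 at 0.876, 0.768 and 0.836 RPKM in HCT116 cells and 2.35, 2.31 and 2.40 RPKM in Ramos cells (-1.11 ± 0.08, adjusted p = 8.1e-06). MYCL (1.35 ± 0.14) and MLXIP (0.88 ± 0.08) were higher in HCT116 cells. MGA did not pass, at 26.8, 24.4 and 24.2 RPKM in HCT116 cells and 24.7, 24.2 and 23.7 RPKM in Ramos cells (0.05 ± 0.05, adjusted p = 0.39).

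Genes that control entry into S phase were divided, as the lower panel of the plot of growth genes shows. Of 20 listed genes 19 were tested, with 8 higher in HCT116 cells, 9 higher in Ramos cells and 2 not passing (median -0.11, or 0.45 after rescaling to an equal sum). Over all tested genes 45.7% and 39% passed in these directions, so the split does not set the list apart. The D cyclins went in opposite directions. CCND1 was at 132, 126 and 139 RPKM in HCT116 cells and 0.0220, 0.327 and 0.0919 RPKM in Ramos cells (7.71 ± 0.16, adjusted p = 1.2e-08), CCND3 at 15.1, 13.6 and 13.9 RPKM in HCT116 cells and 25.9, 27.5 and 29.1 RPKM in Ramos cells (-0.93 ± 0.06, adjusted p = 6.7e-06), and CCND2 had means under 0.3 RPKM and was not tested. The E cyclins did not pass, with CCNE1 at 17.4, 14.3 and 16.5 RPKM in HCT116 cells and 17.2, 16.0 and 17.4 RPKM in Ramos cells (-0.07 ± 0.08, adjusted p = 0.42) and CCNE2 at 20.8, 21.5 and 22.1 RPKM in HCT116 cells and 23.2, 23.5 and 22.9 RPKM in Ramos cells (-0.11 ± 0.04, adjusted p = 0.051). CDKN1A, which encodes the inhibitor p21, was at 65.5, 70.9 and 74.8 RPKM in HCT116 cells and 4.94, 4.54 and 4.78 RPKM in Ramos cells (3.75 ± 0.06, adjusted p = 4.5e-09), and CDKN1C, for p57, was at 4.90, 5.59 and 4.9996 RPKM in HCT116 cells and listed at 0 in Ramos cells. CDKN1B, for p27, differed by 1.61 ± 0.07. CDKN2C, for p18, was higher in Ramos cells (-1.66 ± 0.10), as were the activating factors E2F1 (-0.97 ± 0.07) and E2F2 (-1.47 ± 0.05) and the pocket protein gene RBL2 (-1.16 ± 0.06).

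The p53 pathway was tested in 23 of 25 genes, with 13 higher in HCT116 cells, 7 higher in Ramos cells and 3 not passing (median 0.33). At a difference of at least 4-fold, 6 were higher in HCT116 cells and 0 in Ramos cells. GDF15, a secreted stress factor, was at 57.9, 66.1 and 63.8 RPKM in HCT116 cells and 0, 0.210 and 0.0475 RPKM in Ramos cells (6.77 ± 0.14, adjusted p = 1.0e-08). DDB2, for repair of ultraviolet damage, was at 24.1, 21.8 and 22.9 RPKM in HCT116 cells and 0.957, 0.276 and 0.256 RPKM in Ramos cells (4.62 ± 0.25, adjusted p = 1.6e-06), and FDXR, a mitochondrial reductase, was at 42.9, 45.3 and 48.0 RPKM in HCT116 cells and 4.35, 5.03 and 4.93 RPKM in Ramos cells (3.12 ± 0.07, adjusted p = 1.9e-08). PHLDA3, an inhibitor of AKT, differed by 3.78 ± 0.08. MDM2, a ubiquitin ligase, was instead higher in Ramos cells, at 99.1, 89.5 and 103 RPKM in HCT116 cells and 167, 166 and 163 RPKM in Ramos cells (-0.77 ± 0.06, adjusted p = 9.3e-06), as were SESN2 (-1.14 ± 0.06), BAX (-0.62 ± 0.05) and MDM4 (-0.40 ± 0.09). After rescaling to an equal sum the difference of BAX was -0.0545 and did not pass, and that of MDM4 turned. FAS (0.08 ± 0.14), TP53INP1 (0.23 ± 0.11) and TIGAR (-0.01 ± 0.06) did not pass, with adjusted p of 0.59, 0.09 and 0.86.

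The 16 genes of the BCL2 family were tested, with 7 higher in HCT116 cells, 8 higher in Ramos cells and 1 not passing. Over all tested genes 45.7% and 39% passed in these directions, so this split does not set the family apart either. The median of the family was -0.10 and its sign was not stable, at 0.47 after rescaling to an equal sum and 0.08 for genes with a mean of at least 2 RPKM. Some survival genes differed in RNA level between the lines. BCL2A1, an NF-kB target, was at 0.0496, 0 and 0 RPKM in HCT116 cells and 52.7, 42.4 and 41.3 RPKM in Ramos cells (-6.47 ± 0.11, adjusted p = 4.4e-09), while BCL2L1, which encodes BCL-XL, was at 70.8, 66.1 and 73.1 RPKM in HCT116 cells and 22.2, 20.6 and 23.4 RPKM in Ramos cells (1.64 ± 0.06, adjusted p = 2.5e-07). BCL2 was low in both lines, at 1.46, 1.52 and 1.40 RPKM in HCT116 cells and 0.109, 0.167 and 0.145 RPKM in Ramos cells (1.61 ± 0.09, adjusted p = 1.9e-06), and MCL1 was high in both, at 67.3, 63.6 and 64.9 RPKM in HCT116 cells and 83.9, 76.4 and 76.0 RPKM in Ramos cells (-0.27 ± 0.05, adjusted p = 0.0019). Of the death-promoting members, BIK was at 9.76, 10.5 and 10.2 RPKM in HCT116 cells and 194, 163 and 167 RPKM in Ramos cells (-4.03 ± 0.07, adjusted p = 6.0e-09) and BCL2L11, which encodes BIM, at 5.90, 4.62 and 5.33 RPKM in HCT116 cells and 26.2, 21.7 and 24.9 RPKM in Ramos cells (-2.10 ± 0.10, adjusted p = 1.1e-06), whereas BOK was at 17.7, 16.3 and 17.4 RPKM in HCT116 cells and listed at 0 in Ramos cells. BBC3, which encodes PUMA (2.08 ± 0.14), and BAD (1.22 ± 0.07) were higher in HCT116 cells and the effector BAK1 (-1.16 ± 0.06) in Ramos cells. PMAIP1 did not pass (0.08 ± 0.06, adjusted p = 0.25).

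DNA replication genes differed by less than 4-fold on the deposited scale, although most passed. The 27 listed genes were tested, with 14 higher in HCT116 cells, 7 higher in Ramos cells and 6 not passing, and 0 differed by 4-fold (median 0.20). The largest differences were those of the clamp loader RFC5, at 72.4, 68.6 and 69.5 RPKM in HCT116 cells and 20.4, 20.6 and 20.3 RPKM in Ramos cells (1.75 ± 0.04, adjusted p = 1.8e-08), the helicase subunit MCM2, at 115, 111 and 115 RPKM in HCT116 cells and 38.0, 38.5 and 43.7 RPKM in Ramos cells (1.49 ± 0.06, adjusted p = 3.6e-07), and, toward Ramos cells, RFC3 (-1.09 ± 0.06). The primase PRIM1 (1.26 ± 0.06) and the licensing factor CDT1 (1.24 ± 0.07) were higher in HCT116 cells, and ORC6 (-0.87 ± 0.04), POLA2 (-0.79 ± 0.06) and POLD1 (-0.68 ± 0.05) in Ramos cells. MCM7 did not pass, at 246, 247 and 247 RPKM in HCT116 cells and 229, 232 and 252 RPKM in Ramos cells (0.06 ± 0.05, adjusted p = 0.28). Not passing either were FEN1 (0.05 ± 0.05), RFC2 (0.08 ± 0.06), GINS2 (-0.15 ± 0.07), POLA1 (-0.10 ± 0.05) and POLE (-0.11 ± 0.07), with adjusted p between 0.089 and 0.36. Rescaling to an equal sum turned GINS2, POLA1 and POLE toward HCT116 cells.

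Glycolysis was tested in 21 of 22 genes, with 14 higher in HCT116 cells, 6 higher in Ramos cells and TPI1 not passing (median 0.30). The shared enzymes were abundant and close, as for GAPDH, at 3236, 3189 and 3222 RPKM in HCT116 cells and 2768, 2945 and 3058 RPKM in Ramos cells (0.14 ± 0.05, adjusted p = 0.03), and LDHA, at 459, 454 and 430.3 RPKM in HCT116 cells and 539.6, 553 and 543 RPKM in Ramos cells (-0.28 ± 0.04, adjusted p = 3.1e-04). The exceptions were SLC16A3, a lactate exporter, at 129, 138 and 113 RPKM in HCT116 cells and 2.95, 1.66 and 3.07 RPKM in Ramos cells (5.41 ± 0.20, adjusted p = 2.0e-07), and the enolase ENO2, at 21.0, 21.3 and 20.4 RPKM in HCT116 cells and 0.270, 0.264 and 0.427 RPKM in Ramos cells (4.71 ± 0.09, adjusted p = 9.5e-09). The glucose transporter SLC2A1 (1.02 ± 0.12) and the aldolase ALDOC (0.61 ± 0.06) were higher in HCT116 cells, and SLC2A3 (-0.56 ± 0.13), ALDOA (-0.45 ± 0.05) and PGK1 (-0.33 ± 0.04) in Ramos cells. Enzymes of the NRF2 response and of xenobiotic metabolism were tested in 16 of 25 cases, with 14 higher in HCT116 cells, 5 at least 4-fold (median 1.58). NQO1, a quinone reductase, was at 429, 446 and 463 RPKM in HCT116 cells and 1.97, 2.08 and 1.54 RPKM in Ramos cells (7.57 ± 0.09, adjusted p = 1.1e-09), and the metallothioneins MT1E, at 251, 218 and 243 RPKM, and MT2A, at 142, 122 and 135 RPKM, and the vitamin D hydroxylase CYP24A1, at 49.3, 44.2 and 47.2 RPKM, were listed at 0 in Ramos cells. Among cytosolic regulators, NFE2L2, which encodes NRF2, differed by 0.94 ± 0.06 and KEAP1, its inhibitor, did not pass (0.01 ± 0.08, adjusted p = 0.93). GSTP1, a glutathione transferase, was higher in Ramos cells, at 452, 439.6 and 459 RPKM in HCT116 cells and 632, 635 and 728 RPKM in Ramos cells (-0.56 ± 0.06, adjusted p = 9.4e-05). The 9 untested members were under a mean of 0.5 RPKM in both lines.

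Most cytosolic ribosomal protein genes were somewhat higher in Ramos cells on the deposited scale. Of 87 genes 85 were tested, with 70 higher in Ramos cells, 8 higher in HCT116 cells and 7 not passing (median -0.65). That direction was weakened by scaling, with a median of -0.57 after rescaling to an equal protein-coding sum, -0.28 after quantile normalization and -0.07 after rescaling to an equal sum. Paralogs and canonical genes were both among the larger differences. RPL22L1, a paralog of RPL22, was at 372, 383 and 406 RPKM in HCT116 cells and 68.1, 66.6 and 63.0 RPKM in Ramos cells (2.54 ± 0.05, adjusted p = 8.1e-09), RPS27L at 40.4, 44.9 and 48.0 RPKM in HCT116 cells and 15.5, 17.3 and 15.8 RPKM in Ramos cells (1.43 ± 0.08, adjusted p = 1.7e-06), and RPL39L was at 12.5, 16.2 and 14.9 RPKM in Ramos cells and listed at 0 in HCT116 cells. Of the canonical genes, RPS28 was at 95.3, 92.9 and 90.9 RPKM in HCT116 cells and 501, 541 and 570.3 RPKM in Ramos cells (-2.52 ± 0.05, adjusted p = 1.3e-08), and RPL8, on the other side, at 1261, 1320.3 and 1302 RPKM in HCT116 cells and 868, 844 and 875 RPKM in Ramos cells (0.59 ± 0.04, adjusted p = 4.4e-06). RPS2 (0.54 ± 0.05) followed RPL8, and RPL27 (-1.69 ± 0.11) and RPS27 (-1.66 ± 0.11) followed RPS28. Many of these genes have processed pseudogenes that can share their reads. The 13 mRNAs of the mitochondrial genome differed little, with 3 higher in HCT116 cells, 2 higher in Ramos cells and 8 not passing (median 0.20). Their spread between libraries was wide, as for MT-CO1, at 966, 1176 and 793 RPKM in HCT116 cells and 862, 874 and 785 RPKM in Ramos cells (0.20 ± 0.13, adjusted p = 0.20), with HCT116 replicate 3 the lowest and replicate 2 the highest of its line. MT-ATP8 had the largest difference, at 46.4, 49.8 and 27.2 RPKM in HCT116 cells and 15.9, 11.6 and 10.8 RPKM in Ramos cells (1.62 ± 0.25, adjusted p = 5.7e-04). MT-ND4 (0.67 ± 0.18) and MT-CO3 (0.51 ± 0.09) were also higher in HCT116 cells, and MT-ND2 (-0.70 ± 0.18) and MT-ND5 (-0.50 ± 0.18) in Ramos cells.

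HOX genes, which record position along the body axis, were tested in 20 of 39 cases, and 18 were higher in HCT116 cells, 15 at least 4-fold (median 2.81). HOXA9 was at 43.2, 45.1 and 40.5 RPKM in HCT116 cells and listed at 0 in Ramos cells (adjusted p = 7.5e-10), with HOXA10 at 10.7, 10.3 and 10.97 RPKM, HOXB9 at 8.85, 8.98 and 10.6 RPKM and HOXB6 at 8.41, 10.8 and 6.97 RPKM, for which 0 was also listed there, and HOXB7 at 16.8, 18.8 and 18.1 RPKM in HCT116 cells and 1.20, 0.898 and 1.11 RPKM in Ramos cells (3.56 ± 0.09, adjusted p = 3.6e-08). HOXC4, which is used by B cells, was higher in Ramos cells, at 0.1999, 0.387 and 0.386 RPKM in HCT116 cells and 3.18, 3.09 and 2.46 RPKM in Ramos cells (-2.05 ± 0.14, adjusted p = 6.1e-06). The 19 untested members had means under 1 RPKM in each line. Of 20 cancer-testis antigens 4 were tested. MAGEB2 was at 87.7, 85.0 and 90.4 RPKM and MAGEA3 at 72.2, 71.2 and 72.2 RPKM in HCT116 cells, both listed at 0 in Ramos cells, and PRAME was at 20.6, 21.8 and 21.2 RPKM in HCT116 cells and 0, 0 and 0.0822 RPKM in Ramos cells (5.37 ± 0.09, adjusted p = 3.8e-09). MAGEA6 is nearly identical to MAGEA3 and was at 0.326, 0.344 and 0.357 RPKM in HCT116 cells and 0.651, 0.581 and 1.04 RPKM in Ramos cells, so their separate values are uncertain.

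Beyond the lists, the 10 largest differences toward HCT116 cells with a pseudocount of 0.5 included 5 genes outside them. Genes listed at 0 in the other line take their place in this order from the pseudocount, and LGALS1 was not among the 10 with a pseudocount of 0.1. KITLG, the ligand of the receptor KIT, was at 531, 498 and 541 RPKM, the giant cadherin FAT1 at 497, 516 and 468 RPKM, the kinase scaffold AKAP12 at 366, 358 and 372 RPKM and the annexin ANXA1 at 273, 275 and 287 RPKM, and these 4 were listed at 0 in Ramos cells. KIT itself had means under 0.1 RPKM. LGALS1, which encodes galectin 1, was at 451, 466 and 489 RPKM in HCT116 cells and 0.842, 0.551 and 0.929 RPKM in Ramos cells (8.54 ± 0.11, adjusted p = 1.7e-09), and EREG and MT1E were named above. Toward Ramos cells the 10 largest were IGLC2, IGHM, IGLV2-14, JCHAIN, IGHV4-34, IGLC3, IGLV2-23, CD74, the linker histone gene HIST1H1B and TCL1A. HIST1H1B was at 585, 599 and 636 RPKM in the Ramos libraries and listed at 0 in the HCT116 libraries (adjusted p = 6.7e-11). In the highest range of levels, RN7SK, which holds back the elongation factor P-TEFb, was at 27878, 39773 and 31842 RPKM in HCT116 cells and 139108, 163602 and 137384 RPKM in Ramos cells (-2.16 ± 0.14, adjusted p = 5.4e-06), RPPH1, the RNA of RNase P, was at 8968, 12266 and 10646 RPKM in HCT116 cells and 41808, 45884 and 42476 RPKM in Ramos cells (-2.04 ± 0.12, adjusted p = 2.2e-06), and RMRP was at 14577, 17283 and 16198 RPKM in HCT116 cells and 23799, 21055 and 19476 RPKM in Ramos cells (-0.42 ± 0.10, adjusted p = 0.0049). The difference of RMRP turned with rescaling to an equal sum and with quantile normalization. A further entry for RMRP at the same place was at 6096, 10491 and 8593 RPKM in HCT116 cells and 149.9, 118 and 10.6 RPKM in Ramos cells, and how reads were divided between the entries is not known, so no direction is given for it. RN7SL1 and RN7SL2 are near-identical, and values of such short RNAs depend strongly on fragment length and read assignment.

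**Figure D5:**
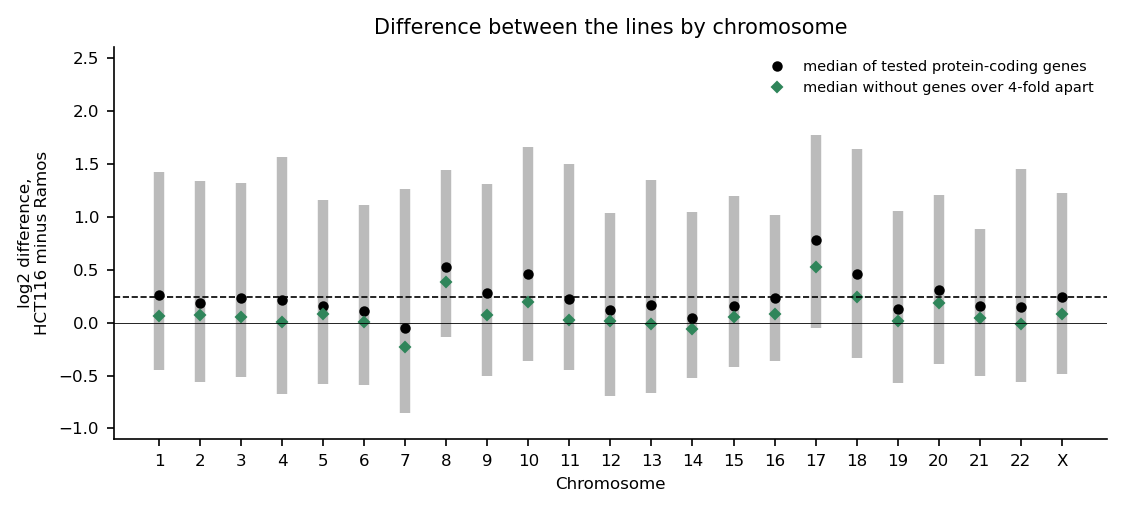
Median difference between untreated HCT116 and Ramos cells (vertical axis, log2, HCT116 minus Ramos) over the tested protein-coding genes of each chromosome (horizontal axis), as black circles with the range between the lower and upper quartiles in gray, and the median without genes at least 4-fold apart as green diamonds. The dashed line is the median over all 12620 genes, 0.24; chromosome 17 is highest at 0.78 and chromosome 7 lowest at -0.06.

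Along the genome, the median difference over protein-coding genes was 0.24 for 12620 genes on the autosomes and the X chromosome. As the plot by chromosome shows, most chromosomes lay near this value. Chromosome 17 stood highest, at 0.78 over 761 genes, and chromosome 8, which carries MYC, was next at 0.53 over 428 genes. Chromosome 7 was lowest, at -0.06 over 592 genes. Without genes at least 4-fold apart the overall median was 0.07, and chromosomes 17, 8 and 7 had 0.52, 0.38 and -0.23. Within a chromosome the spread was wider, with quartiles of -0.05 and 1.77 on chromosome 17 and of -0.86 and 1.26 on chromosome 7. These are descriptions without a test, and DNA copy number was not measured.

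The same genes separated the lines in the libraries given Omomyc, which the comparison did not use. The mean of the 4 treated HCT116 groups was set against that of the 4 treated Ramos groups, with 3 libraries in each group. Doses differed between the lines, since by the titles HCT116 cells received 2 or 10 μM and Ramos cells 0.5 or 2.5 μM for 6 or 24 h, so this is a description. The methods give another value for the lower HCT116 dose, and a tag of the 24 h libraries gives another time. They also give ProteoJuice for the treated HCT116 cells and do not describe the treatment of Ramos cells for sequencing. Dose, delivery reagent and line therefore cannot be told apart in treated cells. Of the 3766 genes at least 4-fold apart in untreated cells, 3764 had the same sign in treated cells and 3362 were again at least 4-fold apart. CD79A differed by -9.41 in untreated and -9.61 in treated cells, and KRT8 by 10.05 and 10.01. MYC differed by -0.24 and -0.38. Of the 13242 genes that passed, 564 had the opposite sign in treated cells, and 26 genes were at least 4-fold apart in treated cells only, having differed by under 1 in untreated cells. Among members described above, the mitochondrial mRNAs changed most as a list, with a median of 0.20 in untreated and 2.93 in treated cells. ID3 differed by -0.40 in untreated and -2.57 in treated cells, ID2 by 0.42 and -1.55, and CXCL8 by 1.57 and 3.58.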

How the data were processed

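RNA from untreated HCT116 and Ramos cells, bought from ATCC, was sequenced as stranded total RNA depleted of rRNA (TruSeq). The authors deposited RPKM for 57992 genes by Ensembl identifier, with 1 column per library, and columns were matched to samples by the number in the sample descriptions. RSEM is named in the submitters' processing notes. The aligner, genome build and annotation are not given in the sources used here, and absolute depth is unknown. Symbols, types and chromosomes came from GENCODE release 29, which holds 57388 of the genes and lacks 604. No transformation of the deposited values was made other than log2(RPKM + 0.5).

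Genes with a mean of at least 0.5 RPKM over the 6 libraries were tested with limma 3.58.1 in R 4.3.3 (lmFit, eBayes with a trend), with Benjamini-Hochberg adjustment over the 15647 genes and a threshold of 0.05. Values after ± are standard errors from this fit with 3 libraries per line. The procedure was tested on simulated data in which only a small share of the genes changed. That test does not show how it behaves where most genes differ, as here. For each of 30 lists, up to 4 genes per direction with the largest differences, a mean of at least 2 RPKM and no overlap were named, with the members that did not pass, the 10 largest differences per direction, the 5 highest levels, MYC and MAX. Other members were named for their role, with values known. The members and lists were chosen with earlier results of these data known.

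Same-numbered libraries of the lines come from different cell lines and share only a number. The alternatives were other pseudocounts (0.1 and 1), filters, scalings, an adjusted p of 0.01, other fits, the replicate number as a block, and leaving out each library. Promoter sequences came from RefSeq on GRCh38.p14. No protein sequence was used. Some list members are counted but not reported here by name.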

Additional observations from a re-analysis of the deposited data

How the results depend on the processing

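The count of 13242 passing genes lay between 13012 and 13463 with pseudocounts of 0.1 or 1, other scalings, no trend or all 10 groups in one fit, and leaving out each library gave 12561 to 13134. Genes at least 4-fold higher numbered 2505 to 2540 in HCT116 cells and 1220 to 1264 in Ramos cells without each library, and 3100 and 1770 with a pseudocount of 0.1. Without the filter 16613 of 29915 genes passed, with a mean of at least 2 RPKM 10315 of 12032, with protein-coding genes alone 10946, and at an adjusted p of 0.01 12077. Rescaling to an equal sum left 3616 genes higher in Ramos cells in place of 6098. Rescaling to an equal protein-coding sum was chosen after seeing the data. The cause of these changes was not tested.

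Of the 286 genes named, 236 kept their direction and side of the threshold in every alternative. Rescaling to an equal sum turned these log2 differences toward HCT116 cells: ALDOA 0.13, AXIN1 0.50, CCNE1 0.49, CCNE2 0.45, GINS2 0.42, GSTP1 0.0186, ID3 0.18, INSR 0.16, LATS1 0.40, LDHA 0.29, MAP3K14 0.32, MAX 0.0691, MCL1 0.31, MDM4 0.17, MT-ND5 0.0759, MYC 0.33, PGK1 0.25, POLA1 0.47, POLE 0.46, RELA 0.40, RMRP 0.16, SPRED2 0.52 and TIGAR 0.53. It also turned the medians of the G1 list (0.45) and the BCL2 family (0.47, and 0.0764 with a mean of at least 2 RPKM). The protein-coding sum turned AXIN1 0.0214, CCNE1 0.0019, SPRED2 0.036 and TIGAR 0.0602, median-ratio scaling turned TIGAR 0.0047, and quantile normalization turned FAS -0.24, NFKBIZ -0.053, RMRP 0.77, RN7SL1 0.50 and TP53INP1 -0.17. Without single libraries the sign changed for genes that had not passed, in the ranges -0.12 to 0.0324 for AXIN1, -0.13 to 0.0058 for CCNE1, -0.0762 to 0.19 for FAS, -0.0593 to 0.0875 for KEAP1, -0.0428 to 0.01 for TIGAR and -0.0179 to 0.0191 for TPI1. Passing calls were lost for GAPDH (0.0997 to 0.17) without each library but Ramos replicate 3, for APC (0.12 to 0.18) without HCT116 replicates 2 and 3 and Ramos replicates 1 and 2, for MT-ND5 (-0.66 to -0.32) without HCT116 replicates 1 and 3 and Ramos replicates 1 and 2, and for NFKBIZ (0.39 to 0.65) without HCT116 replicates 2 and 3 and Ramos replicate 3. APC also lost its call with quantile normalization, without the trend, with all 10 groups, with the replicate block and at an adjusted p of 0.01. In all, 16 of the named genes lost a call in some alternative, among them BAX after rescaling to an equal sum (-0.0545). A call was gained by 19, among them BCL10, which passed in 7 alternatives.

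Same-numbered libraries of the lines share only a number. Their deviations from the group means correlated at 0.0399, 0.0567 and 0.115, and a fit that took that number as a block called 13249 genes, 7148 higher in HCT116 cells. The number of reads is unknown, so no limit of detection can be set on genes listed at 0, and 3 libraries per line limit the precision of each difference.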

Other observations

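Gene families chosen after their values were seen added further groups to the contrast, and the families themselves are described without a test. Beside their counts, 45.7% of all tested genes passed as higher in HCT116 cells and 39% as higher in Ramos cells. The shares at least 4-fold higher were 16.1% and 7.98%. Of 11 tested genes whose symbols begin as those of S100 genes, for small calcium-binding proteins, 9 were higher in HCT116 cells, 7 at least 4-fold. S100A6 was at 642, 659.7 and 661 RPKM in HCT116 cells and 16.6, 16.1 and 15.4 RPKM in Ramos cells (5.31 ± 0.04, adjusted p = 3.5e-10), and S100A14 was at 59.2, 62.9 and 66.1 RPKM in HCT116 cells with 0 listed in Ramos cells. Of 12 genes whose symbols begin as those of annexins, which bind membranes in the presence of calcium, 11 were higher in HCT116 cells. The match by symbol did not leave out pseudogenes or other genes with a like name. ANXA2 was at 947, 922 and 954 RPKM in HCT116 cells and 93.3, 108 and 102 RPKM in Ramos cells (3.22 ± 0.06, adjusted p = 5.2e-09), and ANXA5 was at 143, 142 and 143 RPKM with 0 listed in Ramos cells. The 8 tested ephrin receptors were higher in HCT116 cells, each at least 4-fold. Of 16 genes whose symbols begin as collagen chains, 12 were higher in HCT116 cells, 8 at least 4-fold, led by COL6A2 at 32.6, 36.7 and 33.7 RPKM and COL6A1 at 22.9, 26.7 and 25 RPKM with 0 listed in Ramos cells.

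Interleukin receptors were divided between the lines. Of 23 tested genes, 15 were higher in HCT116 cells, 9 at least 4-fold, and 8 were higher in Ramos cells, 6 at least 4-fold. Several of those in Ramos cells bind growth factors of lymphocytes. IL21R was at 0.328, 0.328 and 0.217 RPKM in HCT116 cells and 101, 98.3 and 100.3 RPKM in Ramos cells (-6.99 ± 0.07, adjusted p = 7.0e-10), IL4R at 8.78, 8.91 and 8.65 RPKM in HCT116 cells and 156, 155 and 158 RPKM in Ramos cells (-4.08 ± 0.04, adjusted p = 5.1e-10) and the common gamma chain IL2RG at 0.0327, 0 and 0.0176 RPKM in HCT116 cells and 18.8, 17.2 and 19.2 RPKM in Ramos cells (-5.19 ± 0.08, adjusted p = 2.8e-09). In HCT116 cells they included IL13RA1, at 15.1, 17.3 and 15.7 RPKM with 0 listed in Ramos cells, IL27RA, at 11.6, 12.7 and 11.6 RPKM in HCT116 cells and 0.107, 0.0746 and 0.0999 RPKM in Ramos cells (4.39 ± 0.08, adjusted p = 5.5e-09), and IL17RD, at 10.2, 9.60 and 9.28 RPKM in HCT116 cells and 0.0072, 0.0109 and 0.0145 RPKM in Ramos cells (4.32 ± 0.08, adjusted p = 5.5e-09).

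Histone cluster genes went in both directions, and their passing counts in each direction were near the shares over all tested genes. Of 62 tested genes, 28 were higher in HCT116 cells, 23 were higher in Ramos cells and 11 did not pass, with 4 and 11 at least 4-fold apart. HIST1H1D, at 152, 156 and 156 RPKM, and HIST1H3I, at 148, 138 and 128 RPKM, were listed at 0 in HCT116 cells beside HIST1H1B, and HIST1H2AL was at 0.0652, 0 and 0 RPKM in HCT116 cells and 230.3, 225 and 283 RPKM in Ramos cells (-8.88 ± 0.10, adjusted p = 1.0e-09). In the other direction, HIST2H2BF was at 307, 308 and 298 RPKM in HCT116 cells and 21.5, 22.2 and 25.2 RPKM in Ramos cells (3.70 ± 0.06, adjusted p = 4.8e-09) and HIST1H3E at 7.87, 7.54 and 9.31 RPKM in HCT116 cells and 0.0236, 0 and 0 RPKM in Ramos cells (4.10 ± 0.10, adjusted p = 2.6e-08). Some of these genes are near-identical, and how reads were divided among them is not known.

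Some host transcripts of microRNA clusters, named with their values known, also differed. Over all tested genes 84.6% passed, so this is not a trait of such hosts. MIR17HG, the host of the cluster that includes miR-17 and a known MYC target, was at 5.92, 5.69 and 4.22 RPKM in HCT116 cells and 22.7, 21.8 and 24.1 RPKM in Ramos cells (-2.03 ± 0.12, adjusted p = 3.1e-06). MIR100HG was at 36.1, 36.1 and 32.0 RPKM and MIR222HG at 11.3, 12.7 and 6.96 RPKM in HCT116 cells, with 0 listed for both in Ramos cells.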
